A study of Mus musculus with 12 samples.

Results

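The genes of blood coagulation and fibrinolysis were followed in whole livers of mice aged 2 weeks. The list held 31 genes, chosen by name for their known role in clotting or clot removal, with earlier results of these data known. The shares of members set against all tested genes below are therefore descriptions. Of these, 29 had a transcript cluster (the group of array probes summarised as 1 value) annotated to that gene alone, out of 19938 such genes on the array, and all 29 were among the 13977 genes tested. Klkb1, plasma prekallikrein, shares its cluster with the neighbouring gene Cyp4v3, and Cpb2, the fibrinolysis inhibitor TAFI, was not analysed here.

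The study set 4 genotypes beside each other with 3 Affymetrix arrays each: Stat3Δhc Mdr2-/-, Stat3Fl/Fl Mdr2-/-, Stat3Δhc and Stat3Fl/Fl livers. Stat3Fl/Fl livers carry a floxed Stat3 gene and still make its product, a transcription factor that passes on interleukin 6 signals, and Stat3Δhc livers carry the deletion. The labels do not name the Cre driver or the cell type in which it acts. Mdr2-/- livers lack the phospholipid exporter of the bile canaliculus, encoded by Abcb4, a loss that gives a mouse model of sclerosing cholangitis. Values are deposited log2 signals after RMA, and the values of the 3 arrays of a genotype are given in the order A, B, C. Nothing in the labels says that the 3 arrays of a genotype are separate animals, so p-values measure the spread between these arrays, which may be technical.

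Hepatocytes secrete most clotting zymogens, their plasma inhibitors and plasminogen. Clotting starts when tissue factor meets factor VII, or when the contact factors XII and XI are activated on a surface, and both routes lead to thrombin, which cuts fibrinogen into fibrin. Antithrombin, the protein C pathway and tissue factor pathway inhibitor restrain these steps, and plasmin, made from plasminogen by its activators, dissolves the clot. Several factors need a vitamin K dependent carboxylation before they leave the hepatocyte. Endothelial cells make factor VIII, von Willebrand factor, thrombomodulin and tissue plasminogen activator.

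Array medians lay between 6.01 and 6.14, and arrays of 1 genotype correlated at 0.98 to 0.991. Stat3 signals of 7.69 to 8.12 in the 6 Stat3Δhc arrays stood against 9.19 to 9.54 in the 6 Stat3Fl/Fl arrays, and Abcb4 signals of 8.87 to 9.36 in the 6 Mdr2-/- arrays against 10 to 10.28 in the 6 others, so both targeted genes followed the sample titles. In the source name field the Mdr2-/- genotypes are exchanged, unlike in the other 3 fields that give them, and the titles were followed. Transcripts of sex were not balanced: Xist was high and Y-linked transcripts low in the 3 Stat3Fl/Fl Mdr2-/- arrays and in array A of Stat3Δhc Mdr2-/- livers, and the other 8 arrays had the opposite pattern. Array A of Stat3Δhc Mdr2-/- livers thus cannot share 1 animal with arrays B and C. For the other arrays within a genotype this stays unknown. The mean of 10 skeletal muscle genes was 5.84 to 6.12 in Stat3Δhc Mdr2-/- and 5.56 to 5.84 in Stat3Fl/Fl Mdr2-/- livers, against 8.88 to 9.35 in Stat3Δhc and 8.88 to 9.65 in Stat3Fl/Fl livers, so muscle RNA moved with the Mdr2 genotype. Exocrine pancreas genes averaged 5.81 or less in the 6 Mdr2-/- arrays and between 5.63 and 10.29 in the 6 others. The mean of 9 hepatocyte markers, albumin and transthyretin among them, was 12.73 or higher in each of the 12 arrays.

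Of the 29 coagulation genes, 3 changed by 1.5-fold or more in at least 1 of the 5 comparisons. The test (limma, Benjamini-Hochberg adjusted p under 0.05 over all 13977 genes) was passed by 8 in at least 1 comparison and by 21 in none. The shares of all tested genes that changed by 1.5-fold or more, or that passed, in at least 1 comparison were not counted. The counts of 3 and 8 can therefore not be set against the array as a whole. Shares of genes that passed are given below for each comparison. The 12 calls comprised 10 falls and 2 rises, with sizes between 1.21-fold and 1.73-fold. Factor XI (F11) was the gene with most calls, falling with Stat3 deletion in both Mdr2 backgrounds and with Mdr2 loss in Stat3Fl/Fl livers. Protein C (Proc) fell with Mdr2 loss in both Stat3 backgrounds. In whole liver, fewer cells of a type and less RNA per cell cannot be told apart. The 12 values of these 8 genes are drawn in the dot plot of called members by array.

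**Figure D1:**
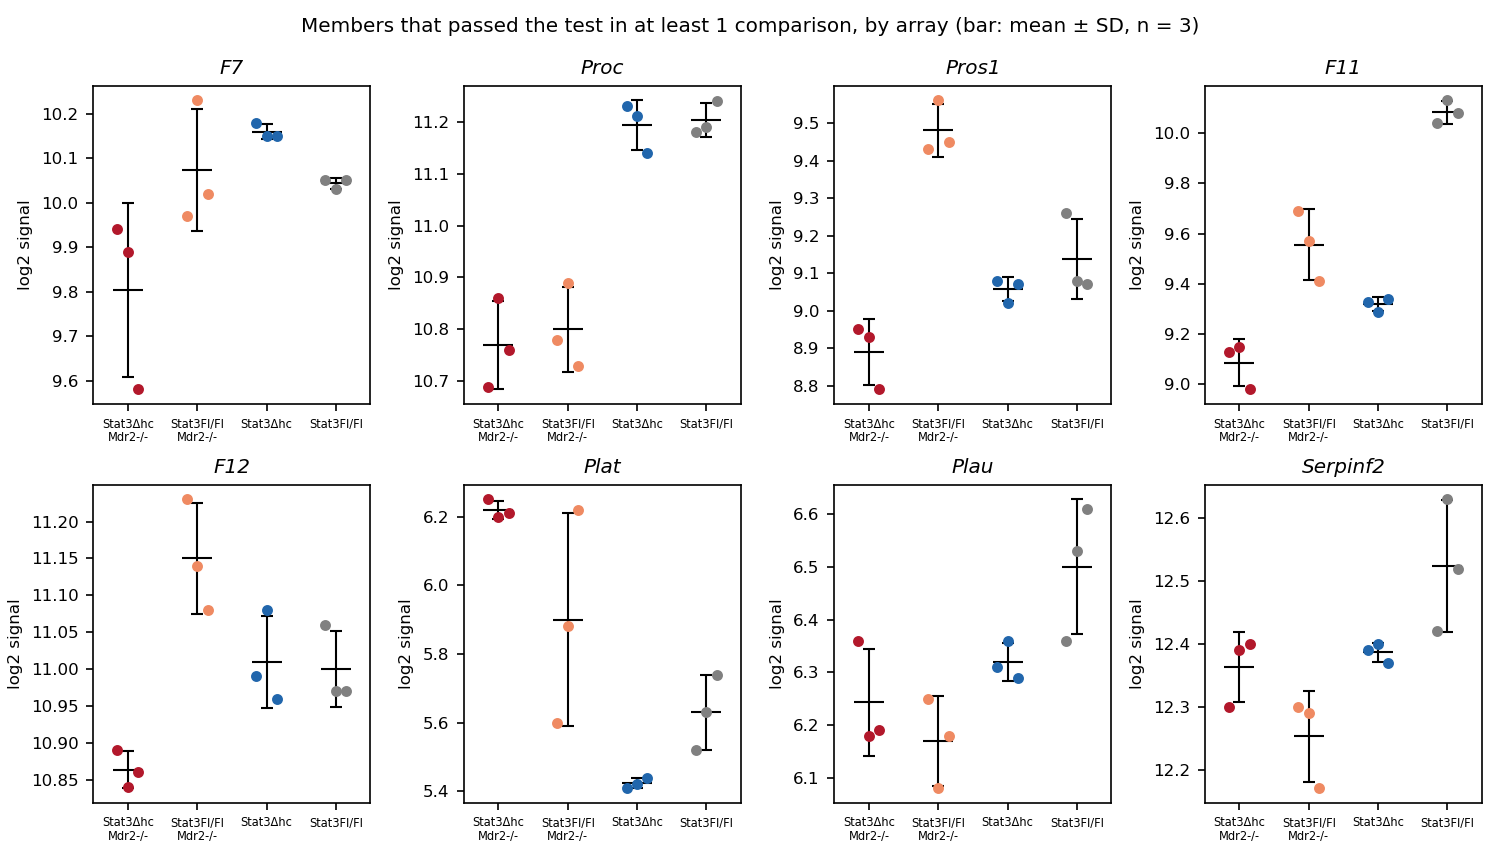
Log2 signal (vertical axes, scaled to each gene) of the 8 coagulation and fibrinolysis genes that passed the test in at least 1 comparison, with 1 point per array in the 4 genotypes, and the mean ± SD of 3 arrays as a bar. F11 lies between 8.98 and 9.15 in Stat3Δhc Mdr2-/- livers and between 10.04 and 10.13 in Stat3Fl/Fl livers, and Proc is lower in both Mdr2-/- genotypes than in the 2 genotypes with Mdr2.

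Stat3 deletion on the Mdr2 knockout (Stat3Δhc Mdr2-/- against Stat3Fl/Fl Mdr2-/-) is the comparison on which the submitters' question turns, namely which pathways underlie cholestatic injury in the double mutant. Pros1, F11 and F12 fell, and 0 members rose. These 3 of 29 genes make 10.3 percent, where 5.77 percent of all tested genes passed, 1.87 percent upward and 3.9 percent downward. The median log2 change of the 29 members was -0.08, against -0.03 over all tested genes, and 19 of the 29 had a negative value. The values of the compared genotypes did not overlap for 9 members (31 percent), against 28.6 percent of all tested genes. The 26 members that did not pass had log2 changes from -0.30 to 0.32, with 95% intervals reaching from -0.61 to 0.86. The genotypes also differ here in the sex-linked pattern, with 1 Xist array among the Stat3Δhc Mdr2-/- livers and 3 among the Stat3Fl/Fl Mdr2-/- livers. With that pattern as a covariate, estimated from the Stat3Δhc Mdr2-/- arrays alone, 0 members passed. The changes were then -0.53 (SE 0.12) for Pros1, -0.43 (SE 0.12) for F11 and -0.26 (SE 0.11) for F12. Without the covariate they were -0.59 (SE 0.08), -0.48 (SE 0.09) and -0.29 (SE 0.08). The hepatocyte list averaged 13.02 to 13.16 in Stat3Δhc Mdr2-/- and 12.73 to 12.88 in Stat3Fl/Fl Mdr2-/- livers. Of its 9 genes 2 were called higher, Tdo2 (1.14) and Hpd (0.48), and 6 changes were positive and 3 negative. The negative ones were those of Alb (-0.02), Ahsg (-0.02) and Ttr (-0.15). The part of hepatocyte RNA in the 3 falls was not tested. The endothelial list averaged 8.57 to 8.75 in Stat3Δhc Mdr2-/- and 8.92 to 9.08 in Stat3Fl/Fl Mdr2-/- livers, with 1 of 10 genes called lower. The macrophage list averaged 8.54 to 8.86 in Stat3Δhc Mdr2-/- and 8.93 to 9.03 in Stat3Fl/Fl Mdr2-/- livers, with 2 of 10 genes called lower, and the stellate cell list 9.26 to 9.37 in Stat3Δhc Mdr2-/- and 9.50 to 9.54 in Stat3Fl/Fl Mdr2-/- livers, with 2 of 7 called lower. These 3 lists lay lower without overlap, like the 3 called members, and their part in the result was not tested.

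Stat3 deletion without the Mdr2 knockout (Stat3Δhc against Stat3Fl/Fl) asks what the deletion does in livers that lack the cholestatic background. Here F11 alone passed, 1 of 29 (3.45 percent) against 2.58 percent of all tested genes (1.51 percent up, 1.07 percent down), and 21 of 29 members had a negative log2 change. Their median was -0.08, against -0.01 over all tested genes. The values did not overlap for 12 members (41.4 percent), against 25.1 percent of all tested genes. The 28 other members had changes from -0.31 to 0.18, with intervals within -0.65 and 0.61. All 6 arrays of this comparison had the Y-linked pattern, and the hepatocyte list averaged 13.19 to 13.22 in Stat3Δhc and 12.77 to 13.08 in Stat3Fl/Fl livers. The stellate cell list averaged 9.41 to 9.52 in Stat3Δhc and 9.55 to 9.78 in Stat3Fl/Fl livers, with 1 of 7 genes called lower. The erythroid (red cell) list averaged 7.99 to 8.16 in Stat3Δhc and 8.32 to 8.58 in Stat3Fl/Fl livers, with 0 of 3 tested genes called. Both lay lower without overlap, like F11, the hepatocyte list lay higher, and the other cell type lists overlapped. The part of these shifts in the F11 values was not tested. The count of called members was 2, with Kng1 added, without array A of Stat3Fl/Fl livers or without array C of Stat3Δhc Mdr2-/- livers, which enters only the estimate of the spread.

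The test of the difference between these Stat3 effects found 0 of 29 members in limma, where 0.0715 percent of all tested genes passed (0.0143 percent up, 0.0572 percent down). At an unadjusted p under 0.05 there were 7 members. The differences lay between -0.51 for Pros1 and 0.53 for Plat, with intervals within -0.76 and 1.14, so that for no member was a Stat3 effect shown to depend on the Mdr2 genotype.

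Mdr2 loss in Stat3Fl/Fl livers (Stat3Fl/Fl Mdr2-/- against Stat3Fl/Fl) shows the cholestatic background with Stat3 present. Pros1 rose, and F11, Proc, Plau and Serpinf2 fell. These 5 of 29 members make 17.2 percent, against 12.8 percent of all tested genes (7.12 percent up, 5.65 percent down), and the values did not overlap for 8 members (27.6 percent) against 33.3 percent of all tested genes. The median change was -0.07, against 0.00 over all genes. The 3 Stat3Fl/Fl Mdr2-/- arrays all had the Xist pattern and the 3 Stat3Fl/Fl arrays the Y-linked one, so Mdr2 loss and sex cannot be told apart between these 6 arrays, and with the pattern as a covariate, estimated from the Stat3Δhc Mdr2-/- arrays alone, 0 members passed. The standard errors of the 5 called members were then 0.14 to 0.16, against 0.08 to 0.09 without the covariate, and the changes were larger for Plau (-0.50) and F11 (-0.59) and smaller for Proc (-0.28), Pros1 (0.25) and Serpinf2 (-0.18). The count was 2 (F11 and Proc) without array B or C of Stat3Fl/Fl or array B of Stat3Fl/Fl Mdr2-/- livers, and 3 (with Pros1) without array A of Stat3Δhc or array C of Stat3Fl/Fl Mdr2-/- livers.

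Mdr2 loss in Stat3Δhc livers (Stat3Δhc Mdr2-/- against Stat3Δhc) shows the same loss once Stat3 is deleted. Plat rose, and Proc and F7 fell. These 3 of 29 (10.3 percent) stood against 17.4 percent of all tested genes (6.9 percent up, 10.5 percent down). The values did not overlap for 13 members (44.8 percent), against 37.2 percent of all tested genes, and the median change was -0.08, against -0.02. With arrays of the Y-linked pattern only, 2 of Stat3Δhc Mdr2-/- and 3 of Stat3Δhc livers, Plat, Proc and F7 passed again. All 5 comparisons are set side by side in the heat map of log2 changes by role.

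**Figure D2:**
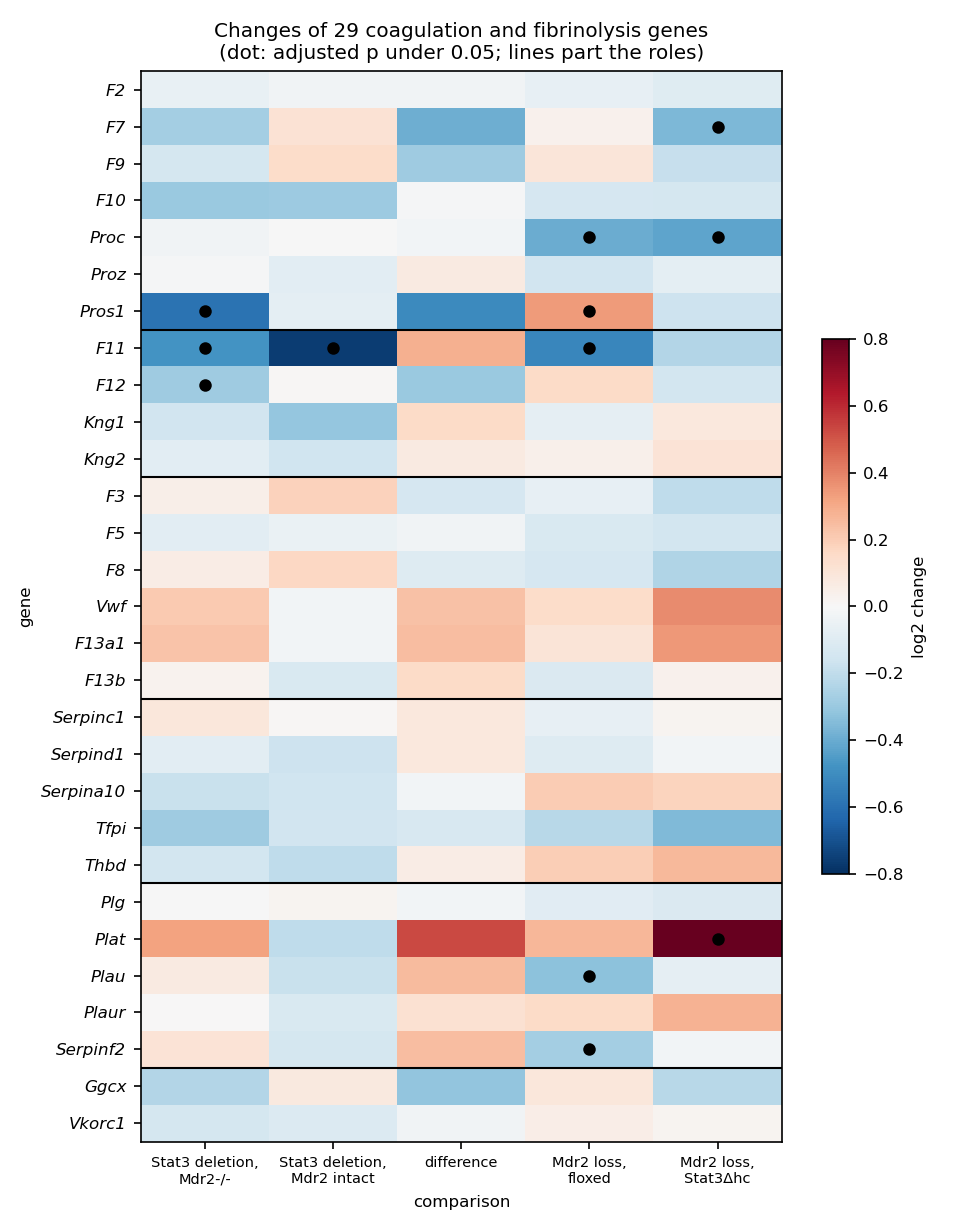
Log2 change (colour, blue for lower and red for higher in the first-named genotype) of the 29 genes, in rows grouped by role, in the 5 comparisons, in columns. A dot marks an adjusted p under 0.05. The largest called changes are the fall of F11 with Stat3 deletion where Mdr2 is intact (-0.76) and the rise of Plat with Mdr2 loss in Stat3Δhc livers (0.79), whose 3 Stat3Δhc values lie under the detection filter, so that its size is uncertain.

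Because Pros1, F11 and F12 were the members called with Stat3 deletion, their promoters are shown, from 250 bases before to 50 bases after the RefSeq gene start in GRCm38.p6, 5′ to 3′ in the direction of the gene. Capitals mark a match to TTCNNNGAA, the STAT motif, which reads the same on both strands. The Pros1 stretch is chr16:62854057-62854356, + strand, that of F11 is chr8:45261982-45262281, - strand, and that of F12 is chr13:55426755-55427054, - strand.
Pros1: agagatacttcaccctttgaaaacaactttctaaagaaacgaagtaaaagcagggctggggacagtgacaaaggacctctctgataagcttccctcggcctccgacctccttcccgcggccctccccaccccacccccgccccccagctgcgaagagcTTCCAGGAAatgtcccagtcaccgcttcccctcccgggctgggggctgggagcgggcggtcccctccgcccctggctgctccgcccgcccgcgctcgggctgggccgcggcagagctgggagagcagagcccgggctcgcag
F11: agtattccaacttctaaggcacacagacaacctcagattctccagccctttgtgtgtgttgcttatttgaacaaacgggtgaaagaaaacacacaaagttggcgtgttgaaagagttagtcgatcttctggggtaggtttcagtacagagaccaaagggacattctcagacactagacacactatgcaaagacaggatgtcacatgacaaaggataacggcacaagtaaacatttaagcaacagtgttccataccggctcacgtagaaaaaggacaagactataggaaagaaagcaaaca
F12: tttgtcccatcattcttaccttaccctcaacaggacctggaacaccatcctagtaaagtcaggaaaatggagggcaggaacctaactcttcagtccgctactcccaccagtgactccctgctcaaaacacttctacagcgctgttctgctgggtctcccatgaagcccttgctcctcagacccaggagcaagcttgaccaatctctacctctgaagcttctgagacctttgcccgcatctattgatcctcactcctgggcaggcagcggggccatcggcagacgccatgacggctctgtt
The Pros1 window holds 1 match, TTCCAGGAA, beginning 92 bases before the start, and the F11 and F12 windows hold 0. Of the 23 listed genes with a promoter in the RefSeq table, 2 had a match, Pros1 and F9 (TTCCCAGAA, 82 bases before the start), and F9 did not pass in any comparison. Over all 32851 promoters of this length, 8.3 percent held the motif. A match describes letters and not a bound site. The C/EBP motif TTGCNNAA, searched on both strands, was found for 8 of the 23 genes, F11 and F9 among them, and in 10.8 percent of all promoters. The HNF1 core GTTAAT was found for 3 (F2, F13b and Proz) and in 7.1 percent of all, and the HNF4 motif CAAAGTCCA for 0, with 0.475 percent of all. No matches to different motifs overlapped in these windows.

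Among the genes of the contact and intrinsic pathway, F11 encodes factor XI, the zymogen that contact activation or thrombin turns into the activator of factor IX. F11 signals were 9.13, 9.15 and 8.98 in Stat3Δhc Mdr2-/- livers, against 9.69, 9.57 and 9.41 in Stat3Fl/Fl Mdr2-/- livers. They were 9.33, 9.29 and 9.34 in Stat3Δhc livers, against 10.04, 10.13 and 10.08 in Stat3Fl/Fl livers. The 4 genotypes thus formed 4 separate bands with no overlap, lowest in the double mutant and highest with both genes intact. Where Mdr2 was intact, Stat3 deletion lowered F11 1.69-fold, a log2 change of -0.76 (SE 0.09, adjusted p = 0.000793), and it lowered it 1.39-fold on the knockout (-0.48, SE 0.09, adjusted p = 0.00913). F11 was 1.44-fold lower in Stat3Fl/Fl Mdr2-/- than in Stat3Fl/Fl livers (-0.52, adjusted p = 0.00203), where Mdr2 loss and sex cannot be told apart. With Mdr2 loss in Stat3Δhc livers the change of -0.24 did not pass (adjusted p = 0.0758). The difference between the Stat3 effects was 0.28 (95% interval 0.02 to 0.55, adjusted p = 0.275), so the smaller fall on the knockout was not shown to differ.

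The F11 call without the knockout held in each alternative run. The call on the knockout was lost when only the 6 arrays compared were fitted (adjusted p = 0.064) and with the sex-linked pattern as a covariate (-0.43, adjusted p = 0.2). With that covariate the call for Mdr2 loss in Stat3Fl/Fl livers was lost too (-0.59, adjusted p = 0.158).

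Factor XII (F12) starts the contact pathway. Its signals were 10.89, 10.84 and 10.86 in Stat3Δhc Mdr2-/- livers, against 11.23, 11.14 and 11.08 in Stat3Fl/Fl Mdr2-/- livers. The groups did not overlap, and the fall was 1.22-fold (-0.29, SE 0.08, adjusted p = 0.0451). Without the knockout F12 was 10.99, 11.08 and 10.96 in Stat3Δhc livers, against 11.06, 10.97 and 10.97 in Stat3Fl/Fl livers, with overlapping values and a change of 0.01 (adjusted p = 0.966). The call on the knockout lay close to the threshold: it held without array A of Stat3Fl/Fl or array A of Stat3Δhc Mdr2-/- livers and was lost without any 1 of the other 10 arrays (adjusted p 0.0515 to 0.111). It was also lost with no filter (0.0716), with cyclic loess scaling (0.112), with median centring (0.0529), when only the 6 arrays compared were fitted (0.143) and with the covariate (-0.26, adjusted p = 0.453).

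The kininogen genes Kng1 and Kng2 encode the carriers of the contact system from which bradykinin is cut, and they are near copies that lie next to each other on chromosome 16, so probes may not part them fully. Kng1 was 12.72, 12.71 and 12.75 in Stat3Δhc livers, against 12.94, 13.08 and 13.08 in Stat3Fl/Fl livers. All Stat3Δhc values lay below the Stat3Fl/Fl values, and the change of -0.31 missed the threshold (adjusted p = 0.0516). Kng1 passed under a stricter filter and with a trended robust prior. On the knockout Kng1 changed by -0.15 (adjusted p = 0.205), and Kng2 had changes of -0.09 and -0.16 on and without it (adjusted p = 0.54 and 0.44).

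Of the vitamin K dependent group, Pros1 encodes protein S, the cofactor of activated protein C. Pros1 signals were 8.95, 8.93 and 8.79 in Stat3Δhc Mdr2-/- livers, against 9.43, 9.56 and 9.45 in Stat3Fl/Fl Mdr2-/- livers. They were 9.08, 9.02 and 9.07 in Stat3Δhc livers, against 9.26, 9.08 and 9.07 in Stat3Fl/Fl livers. The Stat3Fl/Fl Mdr2-/- livers stood above the other 9 arrays, and the double mutant was below all 9 arrays of the other genotypes. On the knockout Stat3 deletion lowered Pros1 1.5-fold (-0.59, SE 0.08, adjusted p = 0.00279), and without it the change was -0.08 (adjusted p = 0.708). The difference of -0.51 (95% interval -0.76 to -0.26) had an unadjusted p of 0.00081 and an adjusted p of 0.139 in limma.

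Pros1 was 1.27-fold higher in Stat3Fl/Fl Mdr2-/- than in Stat3Fl/Fl livers (0.34, SE 0.08, adjusted p = 0.0167), where Mdr2 loss and sex cannot be told apart. With Mdr2 loss in Stat3Δhc livers the change was -0.17 (adjusted p = 0.168). The rise was lost without array B or C of Stat3Fl/Fl livers (adjusted p = 0.0698 and 0.0719), without array B of Stat3Fl/Fl Mdr2-/- livers (0.0601) and with median centring (0.0515). With the sex-linked pattern as a covariate the fall on the knockout was -0.53 with adjusted p = 0.0971. The rise in Stat3Fl/Fl livers was then 0.25 (SE 0.15, adjusted p = 0.567).

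Protein C (Proc) is the zymogen of the anticoagulant protease that inactivates factors V and VIII. Its signals were 10.69, 10.86 and 10.76 in Stat3Δhc Mdr2-/- livers, against 11.23, 11.21 and 11.14 in Stat3Δhc livers. They were 10.78, 10.89 and 10.73 in Stat3Fl/Fl Mdr2-/- livers, against 11.18, 11.19 and 11.24 in Stat3Fl/Fl livers. Each of the 6 Mdr2-/- values lay below each of the 6 values with Mdr2, and within either set the Stat3 genotypes overlapped. Proc fell 1.34-fold with Mdr2 loss in Stat3Δhc livers (-0.42, SE 0.08, adjusted p = 0.00322) and 1.32-fold in Stat3Fl/Fl livers (-0.40, SE 0.08, adjusted p = 0.00507). Stat3 deletion changed it by -0.03 on the knockout and by -0.01 without it (adjusted p = 0.828 and 0.982). The fall in Stat3Δhc livers held in each alternative run, within the Y-linked arrays among them. The fall in Stat3Fl/Fl livers was -0.28 with adjusted p = 0.485 once the sex-linked pattern was a covariate.

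Of 9 hepatocyte markers 1 was called lower with Mdr2 loss in Stat3Δhc livers (Ttr, -0.36, adjusted p = 0.0128), and 7 changes were negative. The mean of the list was 13.02 to 13.16 in Stat3Δhc Mdr2-/- and 13.19 to 13.22 in Stat3Δhc livers. In Stat3Fl/Fl livers 2 of 9 were called lower with Mdr2 loss, and 7 changes were negative. The list means were 12.73 to 12.88 in Stat3Fl/Fl Mdr2-/- and 12.77 to 13.08 in Stat3Fl/Fl livers. All 10 skeletal muscle genes fell with Mdr2 loss in either Stat3 background. The part of these shifts in the Proc values was not tested.

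Factor VII (F7) pairs with tissue factor to start clotting. F7 was 9.94, 9.89 and 9.58 in Stat3Δhc Mdr2-/- livers, against 10.18, 10.15 and 10.15 in Stat3Δhc livers. All 3 double mutant values were below the others, array C the lowest, and the fall was 1.28-fold (-0.36, SE 0.10, adjusted p = 0.03). It was -0.25 with adjusted p = 0.099 without array C of Stat3Δhc Mdr2-/- livers, and the call was also lost without array A, B or C of Stat3Δhc livers (0.0874, 0.0555 and 0.081) and when only the 6 arrays compared were fitted (0.0749). The next genes on chromosome 8, F10 and Proz, did not pass in any comparison.

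Factor X (F10), where the starting routes of clotting meet, was 11.58, 11.62 and 11.28 in Stat3Δhc Mdr2-/- livers, against 11.77, 11.89 and 11.71 in Stat3Fl/Fl Mdr2-/- livers. Without the knockout it was 11.65, 11.61 and 11.64 in Stat3Δhc livers, against 11.81, 11.97 and 12 in Stat3Fl/Fl livers. In both backgrounds the Stat3Δhc values lay below the Stat3Fl/Fl values, and the changes of -0.30 and -0.29 did not pass (adjusted p = 0.0848 and 0.148). Prothrombin (F2) ranged over all 12 arrays only from 12.43 to 12.60. Protein Z (Proz), a cofactor that speeds the inhibition of factor Xa, ranged from 10.26 to 10.57. F9, the X-linked gene of factor IX, ranged from 9.33 to 10.01, with array C of Stat3Δhc Mdr2-/- livers lowest.

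The cofactor, trigger and crosslinking genes gave 0 calls among 6. F5, the cofactor of factor Xa, ranged from 10.88 to 11.21, and F13b, the carrier subunit of the fibrin crosslinker factor XIII, from 10.70 to 10.98. Tissue factor (F3) ranged from 5.78 to 6.35 and the X-linked factor VIII gene (F8) from 8.31 to 8.85. Von Willebrand factor (Vwf), which holds platelets to the vessel wall and carries factor VIII, was 7.94, 7.48 and 7.61 in Stat3Δhc Mdr2-/- livers, against 7.36, 7.27 and 7.27 in Stat3Δhc livers. Those groups did not overlap, and the change of 0.38 missed the threshold (adjusted p = 0.0523). The catalytic factor XIII subunit F13a1, a product of macrophages and platelets, ranged from 5.05 to 6.36 and lay above the 40th percentile of the array, the detection filter used here, in only 5 of 12 arrays.

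The 5 inhibitor genes gave 0 calls as well. Antithrombin (Serpinc1), the main plasma inhibitor of thrombin and factor Xa, ranged from 12.20 to 12.44, and heparin cofactor II (Serpind1) from 11.88 to 12.25. The protein Z dependent inhibitor Serpina10 was 9.43, 9.46 and 9.47 in Stat3Δhc Mdr2-/- livers, 9.59, 9.63 and 9.68 in Stat3Fl/Fl Mdr2-/- livers, 9.27, 9.33 and 9.22 in Stat3Δhc livers, and 9.35, 9.48 and 9.48 in Stat3Fl/Fl livers. Its values did not overlap in any of the 4 comparisons between genotypes, lower with Stat3 deletion and higher with Mdr2 loss, and its changes of -0.18 to 0.20 did not pass (adjusted p 0.0932 to 0.298). Tissue factor pathway inhibitor (Tfpi) ranged from 7 to 8.01 and thrombomodulin (Thbd), the endothelial receptor that turns thrombin towards protein C, from 6.77 to 7.45.

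In fibrinolysis, Plat encodes tissue plasminogen activator. Plat signals were 6.25, 6.20 and 6.21 in Stat3Δhc Mdr2-/- livers, against 5.41, 5.42 and 5.44 in Stat3Δhc livers. They were 5.60, 5.88 and 6.22 in Stat3Fl/Fl Mdr2-/- livers, against 5.52, 5.63 and 5.74 in Stat3Fl/Fl livers. The double mutant arrays lay close together and high, the Stat3Fl/Fl Mdr2-/- arrays were spread between both levels, and only array C of them reached the double mutant. With Mdr2 loss Plat rose 1.73-fold in Stat3Δhc livers (0.79, SE 0.13, adjusted p = 0.00131), and in Stat3Fl/Fl livers the change of 0.27 did not pass (adjusted p = 0.2). The 3 Stat3Δhc values lay under the detection filter, which Plat passed through the other genotypes, so the size of the fold is uncertain. The call held in each alternative in which Plat was tested. It was 0.47 with adjusted p = 0.0177 with groups from the source name, and the 60th percentile filter leaves Plat out.

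Markers of other cell types changed in the same comparison. Of 7 stellate cell markers 3 rose and 3 fell, with list means of 9.26 to 9.37 in Stat3Δhc Mdr2-/- and 9.41 to 9.52 in Stat3Δhc livers. The collagen gene Col1a1 rose by 0.80, Col3a1 by 0.49 and Pdgfrb, a growth factor receptor, by 0.45, while Lrat, Reln and Des fell. Of 10 endothelial markers 0 were called higher and 5 called lower, and 9 changes were negative. Their list means were 8.57 to 8.75 in Stat3Δhc Mdr2-/- and 8.95 to 9.06 in Stat3Δhc livers. The part of these cells in the Plat values was not tested.

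Plau, the urokinase gene, was 6.25, 6.08 and 6.18 in Stat3Fl/Fl Mdr2-/- livers, against 6.36, 6.53 and 6.61 in Stat3Fl/Fl livers. Serpinf2, which encodes the plasmin inhibitor alpha 2-antiplasmin, was 12.30, 12.29 and 12.17 in Stat3Fl/Fl Mdr2-/- livers, against 12.42, 12.63 and 12.52 in Stat3Fl/Fl livers. Both groups were separate for both genes. Plau fell 1.25-fold (-0.33, SE 0.09, adjusted p = 0.0315) and Serpinf2 1.21-fold (-0.27, SE 0.08, adjusted p = 0.0393). Plau lost its call without 5 of the 12 arrays in turn, namely array A of Stat3Δhc, B or C of Stat3Fl/Fl, and B or C of Stat3Fl/Fl Mdr2-/- livers (adjusted p 0.0502 to 0.125), and when only the 6 arrays compared were fitted (0.0594). With the sex-linked pattern as a covariate its change was -0.50 (SE 0.16, adjusted p = 0.225). Serpinf2 kept its call without array A of Stat3Fl/Fl or array A or C of Stat3Δhc Mdr2-/- livers and lost it without any 1 of the other 9 (0.0504 to 0.156). It was also lost with no filter (0.0674), with cyclic loess scaling (0.104), when only the 6 arrays compared were fitted (0.0809) and with the covariate (-0.18, adjusted p = 0.687).

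Plasminogen itself (Plg) ranged over all arrays from 12.66 to 12.87, with changes between -0.11 and 0.02. The urokinase receptor gene Plaur ranged from 5.66 to 6.12 and did not pass. The enzymes of the vitamin K cycle gave 0 calls. Ggcx, the carboxylase, was 9.66, 9.64 and 9.75 in Stat3Δhc Mdr2-/- livers, against 10.01, 9.89 and 9.86 in Stat3Fl/Fl Mdr2-/- livers. The groups did not overlap, and the change was -0.24 (adjusted p = 0.0848). Vkorc1, the epoxide reductase that warfarin blocks, ranged from 9.83 to 10.10.

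The Stat3 effects of the 29 genes with and without the knockout come from separate arrays, and so do the Mdr2 effects with and without Stat3. Across the 29 genes the Stat3 effects correlated at 0.31 (0.35 across all 13977 genes) and the Mdr2 effects at 0.54 (0.68 across all genes). These are descriptions across genes, which are not independent replicates and share arrays, scaling and tissue. Of the 29 members, 14 had a negative Stat3 effect in both backgrounds. In the scatter plot of effects in both backgrounds Proc lies on the line of equal Mdr2 effects, and Pros1 and Plat lie off the lines.

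**Figure D3:**
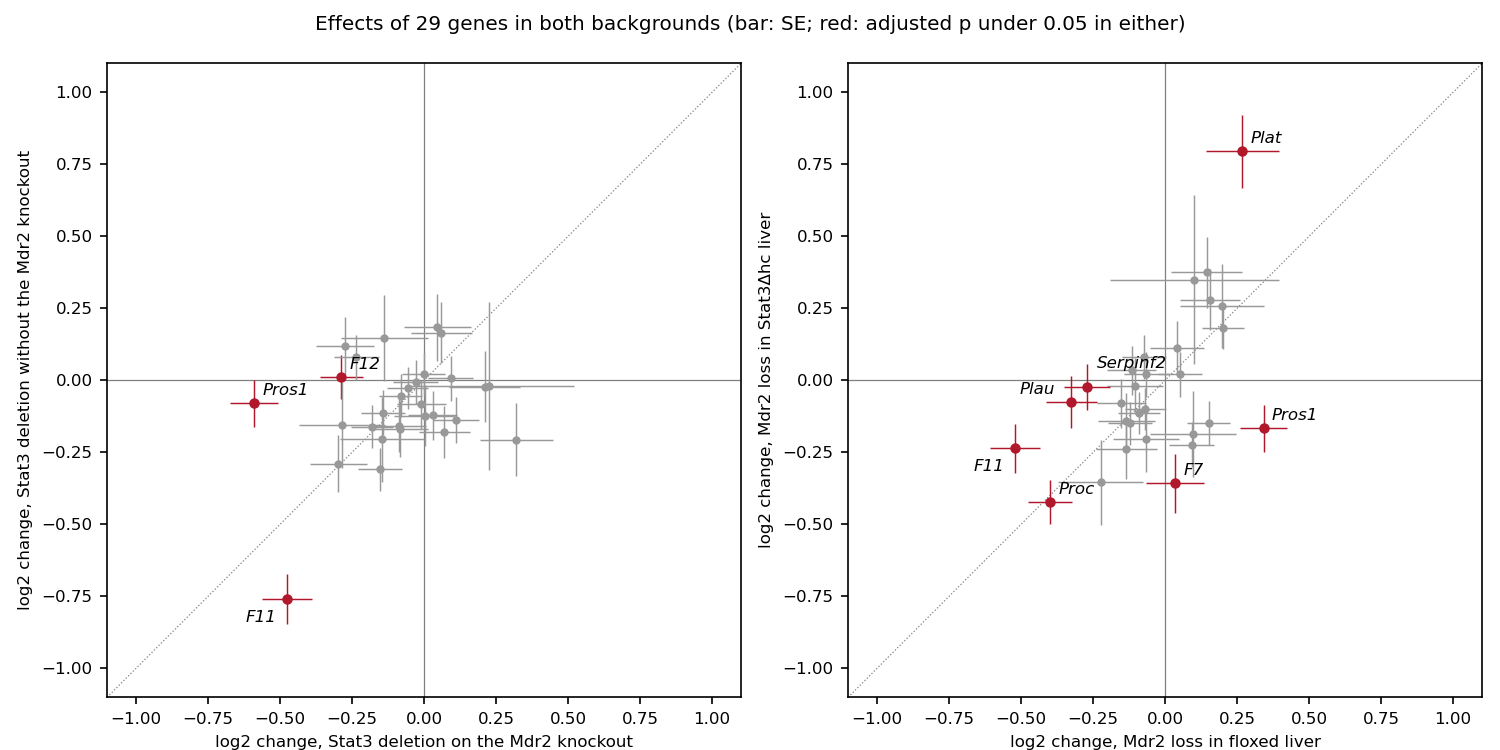
Log2 change of each of the 29 genes in 1 background against the other, for Stat3 deletion (left: on the Mdr2 knockout on the horizontal axis, without it on the vertical axis) and for Mdr2 loss (right: Stat3Fl/Fl livers horizontal, Stat3Δhc livers vertical), with SE bars and a dotted line of equal change. Red points passed the test in either background: F11 fell in both panels' horizontal comparisons (-0.48 and -0.52), and Proc fell by a similar size on both axes of the right panel (-0.40 and -0.42).

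A wider list held 43 further genes of the pathway, fibrinogen chains, receptors, secretion helpers and platelet genes among them, of which 34 had a cluster and 30 were tested. It too was chosen with earlier results of these data known. With Stat3 deletion on the knockout 1 rose and 4 fell, 16.7 percent of 30 against 5.77 percent of all tested genes, and without it 0 rose and 1 fell (3.33 percent, against 2.58 percent). With Mdr2 loss 1 rose and 3 fell in Stat3Fl/Fl livers (13.3 percent, against 12.8 percent), and 1 rose and 5 fell in Stat3Δhc livers (20 percent, against 17.4 percent of all tested genes). For the difference of the Stat3 effects 0 passed in limma. A pair of called genes fell outside the limit of 4 named per comparison and are named after their values were seen: Gas6, a vitamin K dependent relative of protein S (-0.49 with Stat3 deletion on the knockout, adjusted p = 0.0291), and Adamts13, the protease that trims von Willebrand factor (-0.39 with Mdr2 loss in Stat3Δhc livers, adjusted p = 0.0351). The genes named from this list are drawn in the dot plot of other pathway genes by array.

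Lman1 and Mcfd2 encode the cargo receptor that carries factors V and VIII out of the endoplasmic reticulum. Lman1 was 10.23, 10.16 and 9.99 in Stat3Δhc Mdr2-/- livers, against 10.49, 10.48 and 10.54 in Stat3Δhc livers. It was 10.18, 10.28 and 10.20 in Stat3Fl/Fl Mdr2-/- livers, against 10.58, 10.43 and 10.63 in Stat3Fl/Fl livers. All 6 Mdr2-/- values lay below all 6 others, and Lman1 fell by 0.38 in Stat3Δhc livers (SE 0.09, adjusted p = 0.0099) and by 0.32 in Stat3Fl/Fl livers (SE 0.09, adjusted p = 0.0267). Mcfd2 fell by 0.31 in Stat3Δhc livers (adjusted p = 0.0249, named here after its value was seen) and by 0.31 in Stat3Fl/Fl livers (adjusted p = 0.0314). Their cargo genes F5 and F8 did not pass in either comparison. In Stat3Fl/Fl livers the calls were lost without array A or C of Stat3Fl/Fl or array A or C of Stat3Fl/Fl Mdr2-/- livers for Lman1 (0.0783 to 0.105), and without array A, B or C of Stat3Fl/Fl or array B or C of Stat3Fl/Fl Mdr2-/- livers for Mcfd2 (0.0516 to 0.128).

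Hgfac, a plasma protease gene related to factor XII, fell by 0.62 with Mdr2 loss in Stat3Δhc livers (SE 0.13, adjusted p = 0.00818) and by 0.71 in Stat3Fl/Fl livers (SE 0.13, adjusted p = 0.00423). Its values were 9.62, 9.73 and 9.32 in Stat3Δhc Mdr2-/- livers, against 10.26, 10.20 and 10.08 in Stat3Δhc livers. They were 9.66, 9.46 and 9.19 in Stat3Fl/Fl Mdr2-/- livers, against 10.08, 10.32 and 10.04 in Stat3Fl/Fl livers. Procr, the endothelial protein C receptor, rose by 0.45 in Stat3Δhc livers (SE 0.08, adjusted p = 0.00309), with 5.86, 5.89 and 6.09 in Stat3Δhc Mdr2-/- livers, against 5.57, 5.54 and 5.39 in Stat3Δhc livers. The groups were separate for both genes. Procr lay under the detection filter in arrays B and C of Stat3Δhc livers, so the size of its change is uncertain, and the 60th percentile filter leaves it out.

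Among 7 tested inhibitors and modulators of this list 1 rose and 2 fell with Stat3 deletion on the knockout, and 0 rose and 1 fell without it. Of 6 platelet adhesion and granule genes 1 was called lower on the knockout, Itgb3, and 0 were called without it in limma. All 6 had negative changes in either comparison. Serping1, the C1 inhibitor that blocks factor XIIa and kallikrein, was 11.30, 11.25 and 10.54 in Stat3Δhc Mdr2-/- livers, against 11.93, 11.77 and 11.74 in Stat3Fl/Fl Mdr2-/- livers. It was 10.67, 10.49 and 10.77 in Stat3Δhc livers, against 11.42, 11.40 and 11.48 in Stat3Fl/Fl livers. The deleted arrays were lower in both backgrounds, by 0.78 on the knockout (SE 0.16, adjusted p = 0.0181) and by 0.79 without it (SE 0.16, adjusted p = 0.0253). The first call was lost without array A or B of Stat3Fl/Fl Mdr2-/- livers (0.0527 and 0.0533), and the second without any 1 of the 3 Stat3Δhc arrays or without array B or C of Stat3Fl/Fl livers (0.0556 to 0.127).

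A2m, a broad protease inhibitor that takes up plasmin and thrombin, was 6.29, 6.22 and 6.30 in Stat3Δhc Mdr2-/- livers, against 7.19, 8.22 and 9.31 in Stat3Fl/Fl Mdr2-/- livers. It was 5.99, 5.94 and 6.11 in Stat3Δhc livers, against 7.01, 6.82 and 6.78 in Stat3Fl/Fl livers. The Stat3Fl/Fl Mdr2-/- arrays were all higher but far apart. A2m fell by 1.97 with Stat3 deletion on the knockout (SE 0.35, adjusted p = 0.0085) and rose by 1.37 with Mdr2 loss in Stat3Fl/Fl livers (SE 0.35, adjusted p = 0.022), and the rise was 0.84 without array C of Stat3Fl/Fl Mdr2-/- livers and 1.90 without array A. The rise lost its call without array B or C of Stat3Fl/Fl or array B of Stat3Fl/Fl Mdr2-/- livers (adjusted p 0.0532 to 0.0722).

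Hrg, a plasma protein that binds plasminogen and heparin, rose by 0.56 on the knockout (SE 0.10, adjusted p = 0.00758), with 11.93, 11.96 and 11.62 in Stat3Δhc Mdr2-/- livers, against 11.16, 11.35 and 11.33 in Stat3Fl/Fl Mdr2-/- livers. Without the knockout Hrg was 11.64, 11.62 and 11.60 in Stat3Δhc livers, against 11.40, 11.28 and 11.39 in Stat3Fl/Fl livers. Those groups did not overlap, and the change of 0.27 did not pass (adjusted p = 0.177). Itgb3, a subunit of the platelet fibrinogen receptor that endothelial cells make too, was 6.47, 6.55 and 6.88 in Stat3Δhc Mdr2-/- livers, against 7.38, 7.73 and 7.47 in Stat3Fl/Fl Mdr2-/- livers and 7.21, 7.31 and 7.24 in Stat3Δhc livers. In Stat3Fl/Fl livers Itgb3 was 7.56, 7.73 and 7.46, above the Stat3Δhc values, and the change of -0.33 without the knockout did not pass (adjusted p = 0.176). For neither Hrg nor Itgb3 did the difference of the Stat3 effects pass (adjusted p = 0.299 and 0.224). Itgb3 fell by 0.89 with Stat3 deletion on the knockout (SE 0.12, adjusted p = 0.00254) and by 0.62 with Mdr2 loss in Stat3Δhc livers (SE 0.12, adjusted p = 0.00459). Its platelet partner Itga2b changed by -0.09 and 0.05 in these comparisons (adjusted p = 0.644 and 0.766). The platelet gene Ppbp changed by -1.08 and -0.04 (adjusted p = 0.09 and 0.942). All 6 tested platelet genes, Itgb3 among them, had negative changes on the knockout. With Mdr2 loss in Stat3Δhc livers 4 were negative and 2 positive. Of 10 endothelial markers 10 and 9 had negative changes, and 1 and 5 were called lower. The part of platelet or endothelial RNA in the Itgb3 values was not tested. With the sex-linked pattern as a covariate Itgb3 kept its call on the knockout (-1.05, adjusted p = 0.02), and Hrg, A2m and Serping1 lost theirs (0.65, -1.95 and -0.51, adjusted p = 0.0875, 0.16 and 0.442). For Mdr2 loss in Stat3Fl/Fl livers Hgfac, Lman1, Mcfd2 and A2m lost their calls with that covariate (adjusted p 0.222 to 0.478). Their changes were then -0.81 (SE 0.25), -0.47 (SE 0.15), -0.37 (SE 0.16) and 1.34 (SE 0.66), larger for the first 3 genes than without it, with wider errors for all 4.

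The fibrinogen genes Fga, Fgb and Fgg, which encode the substrate of thrombin, did not pass in any comparison. Fga was 11.19, 11.23 and 10.91 in Stat3Δhc Mdr2-/- livers, against 11.28, 11.53 and 11.39 in Stat3Fl/Fl Mdr2-/- livers. It was 11.32, 11.27 and 11.33 in Stat3Δhc livers, against 11.52, 11.73 and 11.70 in Stat3Fl/Fl livers. The deleted arrays were lower in both backgrounds, with changes of -0.29 and -0.34 (adjusted p = 0.0995 and 0.0975).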

How the data were processed

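The authors deposited log2 values of 35556 transcript clusters on 12 arrays. The submitters' processing notes name RMA without a version. The value of a gene is its cluster of highest mean among 21789 clusters naming 1 gene, in a platform annotation that can be old. Genes above the 40th percentile of the array in at least 3 arrays were tested with limma 3.58.1 (R 4.3.3, lmFit and eBayes) on all 12 arrays grouped by title, which left 8 residual degrees of freedom. P-values were adjusted by Benjamini-Hochberg, with a threshold of 0.05. A comparison had a median standard error of 0.11, and the difference between Stat3 effects one of 0.155. With 3 arrays a genotype, their number sets the precision. The members and lists were chosen with earlier results of these data known. Each member called in a comparison is named with its values, and at most 4 further pathway genes per comparison by adjusted p, Stat3 and Abcb4 being the check of the labels. Alternatives were other filters, scalings, cluster summaries, priors and sample sets, a letter block, groups by source name, and the sex-linked pattern. Same-letter arrays deviated together (correlation over 0.1) in 3 of 18 pairs, and letters were not taken as pairs. Between Stat3Δhc and Stat3Fl/Fl arrays the correlations were 0.27 (A), 0.073 (B) and 0.37 (C). The B arrays of the Mdr2-/- genotypes correlated at 0.26, and the lowest correlation of all pairs was -0.41. Whether letters mark pairs without the knockout was not tested. The fit was tested on simulated data, figures were drawn with matplotlib 3.10.9 (Python 3.11.15), and probe-level files were not used here.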

Additional observations from a re-analysis of the deposited data

Results flagged for a closer look

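For 4 genes the values did not overlap in either background and moved in opposite directions. The tested difference of the log2 changes missed the adjusted threshold in limma for each. These genes were picked by that rule from the members and the named pathway genes. The share of all tested genes that meet the rule was not counted. Values without overlap in a single comparison were found for 25.1 to 37.2 percent of all tested genes. Pros1 rose by 0.34 with Mdr2 loss in Stat3Fl/Fl livers and changed by -0.17 in Stat3Δhc livers, a difference of -0.51 (95% interval -0.76 to -0.26, adjusted p = 0.139). F12 changed by 0.15 and -0.15 in the same comparisons, a difference of -0.30 (-0.53 to -0.07, adjusted p = 0.241). F7 changed by -0.27 with Stat3 deletion on the knockout and by 0.12 without it, a difference of -0.39 (-0.70 to -0.08, adjusted p = 0.246). Procr changed by 0.18 and -0.20 in those comparisons, a difference of 0.38 (0.13 to 0.63, adjusted p = 0.224). The Stat3Fl/Fl Mdr2-/- arrays, which enter each of these differences, all had the Xist pattern. With that pattern as a covariate the differences were -0.45 (SE 0.15) for Pros1, -0.27 (SE 0.13) for F12, -0.26 (SE 0.17) for F7 and 0.29 (SE 0.14) for Procr, each with its sign kept and none passing (adjusted p 0.706 to 0.899).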

How the results depend on the processing

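The number of coagulation members called was 3 for Stat3 deletion on the knockout, 1 without it, 0 for the difference of these effects, 5 for Mdr2 loss in Stat3Fl/Fl livers and 3 for Mdr2 loss in Stat3Δhc livers. Leaving out 1 array gave, in that order, 2 to 3, 1 to 2, 0 to 0, 2 to 5 and 2 to 4. With the sex-linked pattern as a covariate 0 passed for Stat3 deletion on the knockout and 0 for Mdr2 loss in Stat3Fl/Fl livers. Fitting only the groups compared gave 1 and 3 for these, with fewer arrays behind the spread. The replicate block gave 3 for Mdr2 loss in Stat3Fl/Fl livers, losing Plau and Serpinf2, and it also lost F12 on the knockout. For Stat3 deletion without the knockout the 60th percentile filter and the trended robust prior gave 2. For Mdr2 loss in Stat3Δhc livers cyclic loess, median centring and the trended robust prior gave 5. Groups from the source name exchange the Mdr2-/- genotypes by construction: they gave 4 for the difference and 5 for Mdr2 loss in Stat3Δhc livers. They turned the changes on the knockout to 0.59 for Pros1, 0.48 for F11, 0.29 for F12, 0.89 for Itgb3, -0.56 for Hrg, 1.97 for A2m and 0.78 for Serping1. Pros1 and A2m became -0.25 and -0.60 for Mdr2 loss in Stat3Fl/Fl livers, and Itgb3 0.27 in Stat3Δhc livers. Apart from these, the cause of a lost call was not tested.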

Other observations

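The cluster shared by Klkb1 and Cyp4v3 was 11.21, 11.30 and 11.15 in Stat3Δhc Mdr2-/- livers, against 11.11, 11.06 and 10.92 in Stat3Fl/Fl Mdr2-/- livers. It was 11.26, 11.05 and 11.25 in Stat3Δhc livers, against 11.09, 10.73 and 10.99 in Stat3Fl/Fl livers. The deleted arrays were higher on the knockout and overlapped without it, while F11, the neighbour of Klkb1, was lower with the deletion in both backgrounds. Which of the 2 genes gives the shared signal cannot be told from this cluster.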
